A study of Mus musculus with 2 samples.

Results

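The cells described here are the endothelial cells of mouse ear skin, which line blood and lymphatic vessels, in 1 library of control skin and 1 library of skin with allergic contact dermatitis (ACD). The cells were chosen by their counts of unique molecular identifiers (UMIs, each counting 1 captured RNA molecule), and no cluster label was used. A member had at least 4 UMIs over Pecam1, Cdh5, Egfl7 and Tie1, with at least 1 from Pecam1 or Cdh5, and no UMI of Ptprc, the pan-leukocyte CD45 gene, or of Pdgfra, a fibroblast receptor. Of 23878 cells kept after quality filtering, 223 were members: 121 of 12213 control cells (0.991%, exact binomial 95% interval 0.823 to 1.18) and 102 of 11665 ACD cells (0.874%, 0.714 to 1.06). Members with at least 3 UMIs over Flt4, Mmrn1 and Lyve1 were counted apart as lymphatic, and the others are called the remaining members. There were 84 lymphatic and 37 remaining members in control skin and 62 and 40 in ACD skin. The remaining members were not all of blood vessels: Prox1, the lymphatic master regulator, was detected in 17 of the 37 in control and 7 of the 40 in ACD, and Flt1, a VEGF receptor of blood endothelium, in 16 and 32. Those with at most 2 UMIs over 7 lymphatic markers (Prox1, Reln, Pdpn, Ccl21a, Flt4, Mmrn1 and Lyve1), a gate chosen after seeing the data, numbered 19 in control and 32 in ACD, and Flt1 was detected in 15 and 30 of them. The levels of these rule genes are a description only, and they were left out of every count and rank.

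Both groups were ear skin of male ICR mice aged 7 to 8 weeks. For ACD, 1.0% 2,4-dinitrofluorobenzene (DNFB), a skin-sensitising hapten, was put on dorsal skin, and 6 days later 0.2% DNFB was put on the ears, which were taken 60 hr after that. Control ears are labelled healthy, and the sources used here do not say whether they received vehicle or how many animals each library pools. Skin was digested with collagenase D and DNase1, dead cells were removed, and single cells were captured on droplets. The libraries held 99037698 UMIs in 12895 barcodes for control and 126566870 UMIs in 13163 barcodes for ACD. With 1 library in each group there is no replicate error, so no test between conditions was possible, and every interval given covers counting error only. Kept cells of the 2 libraries shared 47 barcode sequences, none of them a member.

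Endothelium lines every vessel and controls what leaves the blood. Inflammatory cytokines act on it directly: tumour necrosis factor and interleukin-1 raise selectins and adhesion molecules that catch leukocytes, most of all in postcapillary venules, and interferon-γ raises antigen presentation and the chemokines that attract T cells. Lymphatic endothelium drains fluid and cells to the lymph node and releases the CCR7 ligand Ccl21, which dendritic cells follow.

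The endothelial label was checked on 12 other markers (Cldn5, Kdr, Flt1, Emcn, Eng, Esam, Plvap, Ramp2, Ecscr, Tek, Robo4 and Erg). All 121 control and all 102 ACD members had at least 3 UMIs over these markers, and all 12 were detected in each class except Flt1, which had no UMI in ACD lymphatic members. At the edge of the rule, the 10 control cells and 1 ACD cell with exactly 3 UMIs over the rule genes had medians of 7.5 and 13 UMIs over the 12 markers, and the 9 and 4 members with exactly 4 had medians of 20 and 17. At the lymphatic edge, 6 control and 2 ACD members had exactly 2 lymphatic UMIs and 5 and 4 had exactly 3. A further 2 control and 20 ACD cells met the endothelial count but held Ptprc, and 20 and 7 held Pdgfra.

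Depth and admixture differed between the groups. Lymphatic members had a median of 6570 UMIs in control and 10043 in ACD, and remaining members had 4725 and 13193. The limit of 25000 UMIs per cell removed 10 control and 34 ACD cells that otherwise met the rule, so the ACD members lack their deepest cells. RNA of other cells was also found. In lymphatic members, the fibroblast markers (Col1a1, Col1a2, Col3a1, Dcn, Lum, Dpt and Mfap5, with Pdgfra at 0 by the rule) summed to 2570 UMIs per 1000000 in control and 715 in ACD, and 1 cell held 55.2% and 63.4% of those UMIs. Their part in the results was not tested. In remaining members, 10 pericyte and smooth muscle markers such as Rgs5 and Acta2 summed to 1120 and 715 per 1000000, and 3 cells held 80.6% and 88.7% of them. Doublets were not called, and instead counts were repeated without members that held over 2 UMIs of other cell types' markers.

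Lymphatic members made up 69.4% of control members (60.4 to 77.5) and 60.8% of ACD members (50.6 to 70.3). As a share of kept cells, the log2 ratio of ACD to control was -0.37 (-0.87 to 0.12) for lymphatic and 0.18 (-0.50 to 0.86) for the remaining members, and 0.82 (-0.045 to 1.72) for the remaining members with few lymphatic UMIs. Each interval reaches 0. The kept cells these shares refer to also differed in makeup, with 971 Ptprc-positive cells in control and 4189 in ACD.

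In lymphatic members, the genes that differed most were those of antigen presentation and of the interferon response. Levels are given as UMIs of a gene in all members of a class per 1000000 UMIs of those members, and log2 ratios are ACD over control. A gene counted as higher or lower when the ratio passed 2-fold with 10 UMIs per 1000000 added to both levels. Of 3815 genes with at least 50 UMIs, 68 were higher in ACD (1.78%) and 54 were lower (1.42%), around a median log2 ratio of -0.05. A gene with few control UMIs reached the minimum through ACD alone, so for lists that hold such genes the median without a minimum is given too. The 10 highest were Cd74, Gbp4, Gbp2, H2-Aa, Iigp1, H2-Ab1, Psmb8, Igtp, H2-Q7 and Zbp1, all of them MHC or interferon-inducible genes.

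**Figure D1:**
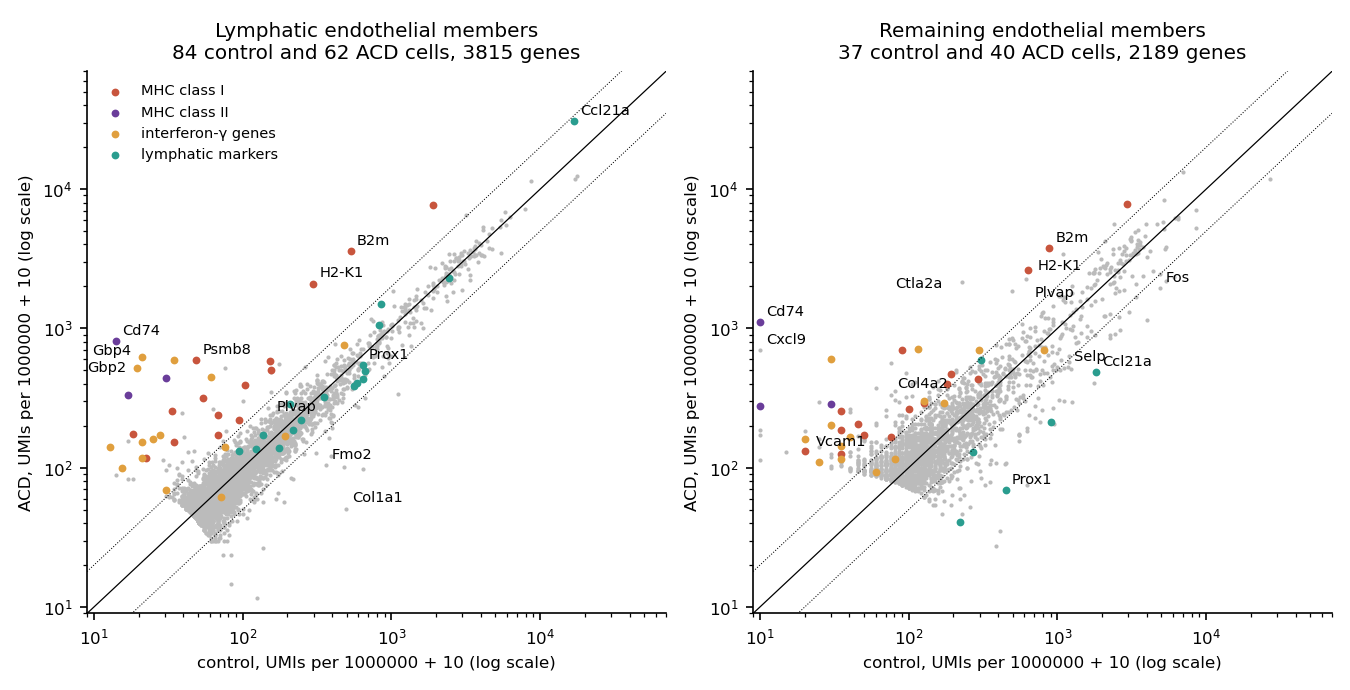
Level of each gene with at least 50 UMIs in control (x axis) and ACD (y axis), in UMIs per 1000000 with 10 added, on log axes, for lymphatic members (left, 84 and 62 cells, 3815 genes) and remaining members (right, 37 and 40 cells, 2189 genes). Each point is a gene, coloured by list as in the key; the solid line marks equal levels and the dotted lines 2-fold. Most MHC class I, class II and interferon-γ genes lie above the upper dotted line in both panels, while on the left the lymphatic markers lie between the dotted lines.

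MHC class I molecules show peptides from inside the cell to CD8+ T cells. All 15 genes of the class I list that reached 50 UMIs in lymphatic members were higher in ACD, next to 1.78% of all genes. Their median log2 ratio was 2.15 (2.01 without a minimum). B2m, the invariant light chain, had levels of 522 in control and 3556 in ACD, and a log2 ratio of 2.77 (2.61 to 2.93). The heavy chain H2-K1 (GRCm38 chromosome 17, 33996017 to 34000347) had levels of 287 and 2084, a log2 ratio of 2.86 (2.65 to 3.08). H2-D1, another heavy chain and already the most abundant of the list in control, had 1893 and 7627. The 2 heavy chains thus started from unlike levels, and the log2 ratio of H2-D1 was 2.01 (1.92 to 2.10).

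The genes that make and load the peptides lay higher too. Psmb8, a catalytic subunit of the immunoproteasome, had 38.5 UMIs per 1000000 in control and 581 in ACD (log2 ratio 3.92, 3.36 to 4.52), and was found in 20 of 84 and 56 of 62 cells. Psmb9 and Psmb10, the other immunoproteasome subunits, had log2 ratios of 3.38 and 2.54. The proteasome activators Psme1 and Psme2, with 1.77 and 1.33, were at the lower end of the list. The peptide transporter subunits differed in size: Tap1 had a log2 ratio of 3.12 (2.11 to 4.30) and Tap2 1.49 (0.96 to 2.04), and their counting intervals do not overlap. Psmb9, Tap1 and Psmb8 lie side by side on chromosome 17 between 34181987 and 34201454.

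The difference was spread over the lymphatic cells. Per cell, the summed class I list had a median of 32.0 UMIs per 10000 in control (13.0 to 117) and 175 in ACD (33.1 to 328). Thus 48 of 62 ACD cells lay above the highest control cell. For B2m alone the medians were 3.92 and 36.6 per 10000, and 47 of 62 ACD cells exceeded every control cell.

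**Figure D2:**
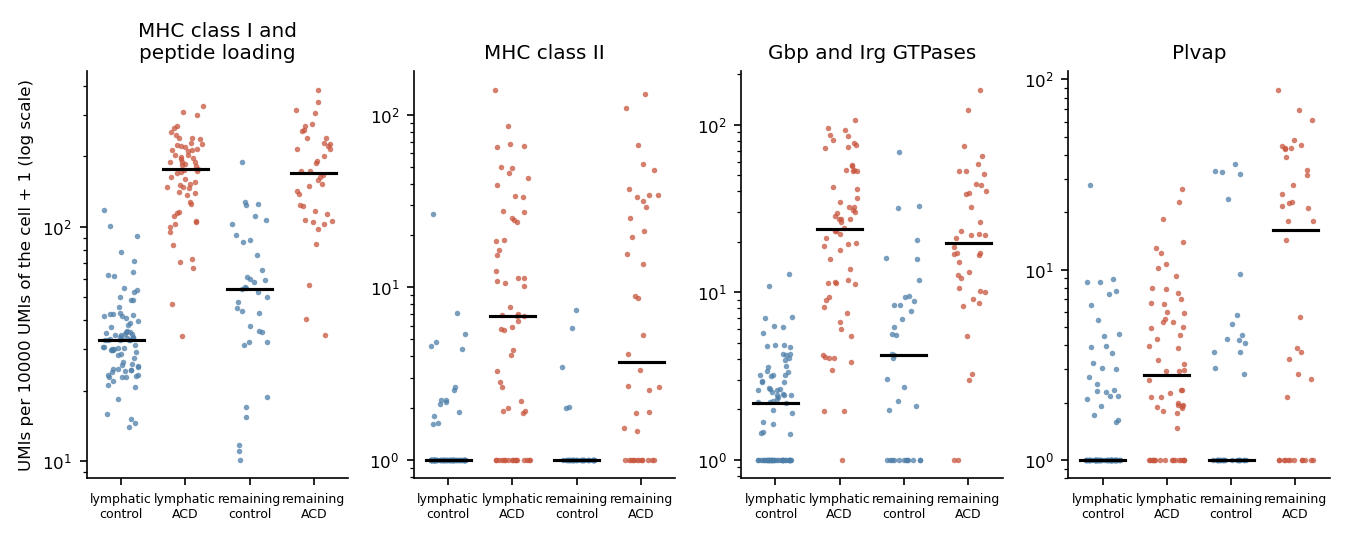
UMIs per 10000 in each member, with 1 added on a log axis, for the MHC class I list, the MHC class II list, the Gbp and Irg GTPases and Plvap, in lymphatic and remaining members of control and ACD skin. Each point is a cell and each bar a median; the class I medians go from 32.0 to 175 in lymphatic and from 53.3 to 169 in remaining members, and class II values are spread over a wide range of ACD cells, with medians of 5.82 and 2.70.

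Promoters are printed for 3 genes that were higher in lymphatic members and for Cxcl10, which was higher in remaining members. They were chosen because they hold letters that interferon-activated factors are known to bind. GAS are the elements through which interferon-γ acts, ISRE sites are bound by interferon regulatory factors, and kappaB sites by NF-κB. The motifs searched on both strands were TTCNNNGAA (GAS), TTTC, repeated with any 2 bases between (ISRE), and GGG, any 2 bases, TT, any base and CC (kappaB), and matches are in capitals. The windows are the 250 bases before the start in RefSeq on GRCm38.p6, written 5′ to 3′ on the gene's strand: chr11:58199306-58199555 (+) for Igtp, chr3:142530086-142530335 (+) for Gbp7, chr2:122147437-122147686 (+) for B2m and chr5:92348890-92349139 (-) for Cxcl10.
Igtp: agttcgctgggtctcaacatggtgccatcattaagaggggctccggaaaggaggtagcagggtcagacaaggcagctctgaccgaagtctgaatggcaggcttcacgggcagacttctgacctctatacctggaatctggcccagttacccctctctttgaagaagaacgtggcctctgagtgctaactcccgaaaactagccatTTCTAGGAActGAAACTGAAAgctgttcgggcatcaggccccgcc
Gbp7: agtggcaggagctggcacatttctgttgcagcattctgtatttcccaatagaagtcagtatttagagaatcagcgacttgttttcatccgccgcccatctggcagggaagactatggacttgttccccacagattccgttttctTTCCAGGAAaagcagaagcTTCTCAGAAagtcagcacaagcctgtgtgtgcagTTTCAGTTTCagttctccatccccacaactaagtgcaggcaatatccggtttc
B2m: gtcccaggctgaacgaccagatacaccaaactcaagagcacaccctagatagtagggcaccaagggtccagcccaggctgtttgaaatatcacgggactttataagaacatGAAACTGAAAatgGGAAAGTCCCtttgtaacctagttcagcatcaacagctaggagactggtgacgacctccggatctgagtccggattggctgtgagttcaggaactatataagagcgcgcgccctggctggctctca
Cxcl10: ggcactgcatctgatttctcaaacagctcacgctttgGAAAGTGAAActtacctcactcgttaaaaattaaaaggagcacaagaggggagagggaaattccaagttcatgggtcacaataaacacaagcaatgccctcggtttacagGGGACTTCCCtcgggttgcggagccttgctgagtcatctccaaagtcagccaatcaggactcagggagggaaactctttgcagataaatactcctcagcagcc

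Igtp, an immunity-related GTPase, held a GAS match whose first base was 45 bases before the start and an ISRE match 34 bases before it. Gbp7, a guanylate-binding protein, held 2 GAS matches at 106 and 87 and an ISRE match at 53. B2m held an ISRE match at 139 and a kappaB match at 126, and the chemokine Cxcl10 held the same pair at 213 and 103. Over the 300 bases from 250 before to 50 after each start, 44 of the 68 genes higher in lymphatic members had a window, 49 windows in all. A GAS match lay in 20.4% of them, an ISRE match in 30.6% and a kappaB match in 18.4%. In all 32851 windows of the table the shares were 8.3%, 3.44% and 4.79%, in the 3813 windows of genes tested in lymphatic members 5.98%, 3.09% and 5.27%, and in the 50 windows of lower genes 2%, 4% and 0%. A match is letters only and was not shown to be bound.

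The GTPases that interferon-γ induces, which attack the vacuoles of intracellular pathogens, were among the widest differences. Of 15 genes of the interferon-γ list with at least 50 UMIs in lymphatic members, 11 were higher and none lower. Of all genes, 1.78% were higher and 1.42% lower. The list had a median of 2.67 (1.85 without a minimum). Gbp4 had 8 UMIs in control and 406 in ACD, levels of 11 and 614 per 1000000 and a log2 ratio of 5.80 (4.81 to 7.02). Gbp2 had 9.62 and 513 (5.74, 4.68 to 7.06), and Iigp1 had 24.7 and 581 (4.55, 3.87 to 5.32). In ACD these 3 lay between 513 and 614 per 1000000. Igtp had 2 UMIs in control against 86, a log2 ratio of 5.56 with a wide interval of 3.67 to 8.63. Gbp7, the promoter of which is printed above, started higher, at 50.9, and reached 440 (3.11, 2.62 to 3.65). Gbp5, Gbp7, Gbp3 and Gbp2 form a row on chromosome 3 between 142493978 and 142638008, while Gbp4 lies on chromosome 5 (105115767 to 105139586). Gbp and H2-Q genes have near-identical relatives, so the division of reads among single members is uncertain.

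Per lymphatic cell, the summed Gbp and Irg GTPases had medians of 1.19 and 22.7 UMIs per 10000, and 41 of 62 ACD cells lay above the highest control cell at 11.8. With cells thinned to 2000 UMIs, Gbp4 was found in 1 of 82 control cells (1.22%) and 35 of 62 ACD cells (56.5%, 43.3 to 69.0). In full depth the shares were 7.14% and 82.3%. In cells gated as chondrocytes, which served to show free RNA, the thinned shares were 0.0311% and 0.988%, at median depths of 8169 and 9797 UMIs before thinning.

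The signalling part of the same list was uneven. In lymphatic members the interferon regulatory factors Irf9 and Irf8 had log2 ratios of 1.52 and 0.98, and Irf1, a first-wave target, had levels of 466 and 752 per 1000000 and a log2 ratio of 0.69 (0.49 to 0.89). The receptor chain Ifngr1 (-0.27, -0.95 to 0.41) and the kinase Jak1 (-0.19, -0.58 to 0.19) did not differ beyond counting error. Cd274, which encodes the inhibitory ligand PD-L1, had 3 UMIs in control and 27 in ACD (3.31, 1.61 to 5.67).

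Of 7 antiviral interferon-stimulated genes with at least 50 UMIs in lymphatic members, 6 were higher, next to 1.78% of all genes. Their median log2 ratio was 1.48 (1.16 without a minimum). Zbp1, a nucleic acid sensor, had 6.87 and 147 per 1000000 (4.42, 3.14 to 6.07). Isg15, a ubiquitin-like modifier, had 53.6 and 253, and the virion tether Bst2 had 146 and 487, log2 ratios of 2.24 and 1.74. Among the membrane restriction factors, Ifitm3 had 1.04 (0.96 to 1.11) and Ifitm2 0.03 (-0.09 to 0.15). Irf7, short of the 50 UMIs, had none in control and 49 in ACD, at least 18-fold higher against a floor of 3 control UMIs.

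MHC class II molecules show peptides taken up from outside to CD4+ T cells and are induced on endothelium by interferon-γ. Of 9 class II genes, 3 reached 50 UMIs in lymphatic members, each through its ACD UMIs. Their median log2 ratio was 4.31, and 2.12 over the list without a minimum. Cd74, the invariant chain that guides class II assembly, had 3 UMIs in control and 528 in ACD, levels of 4.12 and 799 and a log2 ratio of 7.60 (6.04 to 9.88). H2-Aa had 6.87 and 325, and H2-Ab1 had 20.6 and 433. The peptide exchange subunit H2-DMb1 had no UMI in control and 24 in ACD, at least 8.80-fold higher. Ciita, the class II master regulator, was not measurable, with 0 and 2 UMIs. With all deposited barcodes, those over 25000 UMIs included, the median of the genes with at least 50 UMIs was 2.95.

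Class II RNA was less evenly spread than class I. The per-cell sum had a median of 0 in control and 5.82 UMIs per 10000 in ACD, and 14 of 62 ACD cells lay above the highest control cell at 25.7. Thinned, 2.44% of control lymphatic cells held a Cd74 UMI and 41.9% of those in ACD (29.5 to 55.2), with 2.38% and 54.8% unthinned. The same gene was found in 0.591% and 16.5% of thinned chondrocyte-gated cells, a cell type not known for class II, and in 2.17% and 30.6% of them unthinned, so the ACD share has to be read against that background. The 10 myeloid genes summed to 48.1 and 51.4 per 1000000 in lymphatic members. Of these, Csf1r, C1qb, C1qc and Adgre1 had no UMI in either library, while C1qa, S100a8 and S100a9 had none in control and some in ACD.

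The lymphatic identity genes outside the rule did not pass 2-fold. None of 17 was higher or lower, with a median of -0.13, next to 1.78% higher and 1.42% lower of all genes. None in so short a list is close to that background. The class was also gated on the lymphatic genes Flt4, Mmrn1 and Lyve1 in both libraries, so a cell without them could not enter it. Prox1, the lymphatic master regulator, had 630 and 534 UMIs per 1000000 (-0.24, -0.44 to -0.03), and Pdpn had 235 and 212. The glycoprotein gene Reln (-0.54) and the transcription factor Maf (-0.54) were lower by less than 2-fold. Ccl21a, the most abundant gene of the list, had 16942 and 30550, a log2 ratio of 0.85 (0.82 to 0.88), and its median per cell was 171 and 282 UMIs per 10000. Ccl21a has near-identical copies, so its reads may be shared with them. The G protein subunit Gng11 had 838 and 1484 (0.82).

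Among 7 adhesion genes, Plvap and Icam2 were higher and none was lower, next to 1.78% and 1.42% of all genes. Plvap, the diaphragm protein of fenestrae and caveolae that also gates lymphocyte passage in lymphatics, had 144 and 337 UMIs per 1000000 (1.22, 0.88 to 1.57). It was found in 28 of 84 and 46 of 62 cells, and thinned in 13.4% and 48.4%, while 1 control cell held 41.0% of the control UMIs. Icam2, a resting integrin ligand, had 48.1 and 116 (1.28, 0.68 to 1.90). Icam1, with 331 and 357, did not differ beyond counting error. Vcam1 had 3 and 2 UMIs and Sele 2 and 0, so neither was measurable. Of 6 chemokine genes, Ccl2 alone passed 2-fold, at 90.7 and 290, with 59.4% of its ACD UMIs in 1 cell.

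At the low end the lymphatic list was led by matrix genes. Col1a1, the fibrillar collagen of fibroblasts, had 487 and 40.8 UMIs per 1000000 (-3.57, -4.20 to -3.01), but 1 control cell held 68.1% of the control UMIs. The same held for Coch, Col1a2, Col3a1, Serpinf1, Fmod, Postn and Fabp4, with 64.2% to 89.2% of the control UMIs in 1 cell. Sparc, a matrix glycoprotein, had 1097 and 328, and its log2 ratio turned to 0.10 once members with over 2 UMIs of other cell types were left out. Fmo2, a flavin monooxygenase, was the exception among the 10 lowest. It had 351 and 93.8 (-1.90, -2.33 to -1.5), was found in 45 of 84 and 12 of 62 cells, and no control cell held more than 9.41%. Gstm1, a glutathione transferase, was lower in the same manner, with 162 and 56.0 (-1.54, -2.11 to -0.99) in 50 of 84 and 16 of 62 cells.

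Other lists are given for their values, since few of all genes were higher (1.78%) or lower (1.42%) in lymphatic members and none past 2-fold in a short list is close to that background. No gene passed 2-fold among 12 NF-κB genes (median 0.16), 11 VEGF, angiopoietin and BMP genes (0.13), 7 Notch genes (-0.11), 9 junction genes (0.12), 15 endothelial transcription factors (-0.33), 14 genes of vessel tone and coagulation (-0.24), 11 of glycolysis and hypoxia (-0.02) or 11 endoplasmic reticulum chaperones (0.29). Cldn5, the tight junction claudin, had 1677 and 1820 UMIs per 1000000, and Kdr, the VEGF receptor, 415 and 434. Ptn, a heparin-binding growth factor, was the only sprouting gene of 9 past the line, at 584 and 265 (-1.14, -1.40 to -0.88). The 20 immediate-early and heat-shock genes, which tissue digestion is known to raise, summed to 45009 in control and 38966 in ACD, and Fos had 5398 and 3439. Hmox1, heme oxygenase, had 67.4 and 174 (1.37), with 39.1% of the ACD UMIs in 1 cell.

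**Figure D3:**
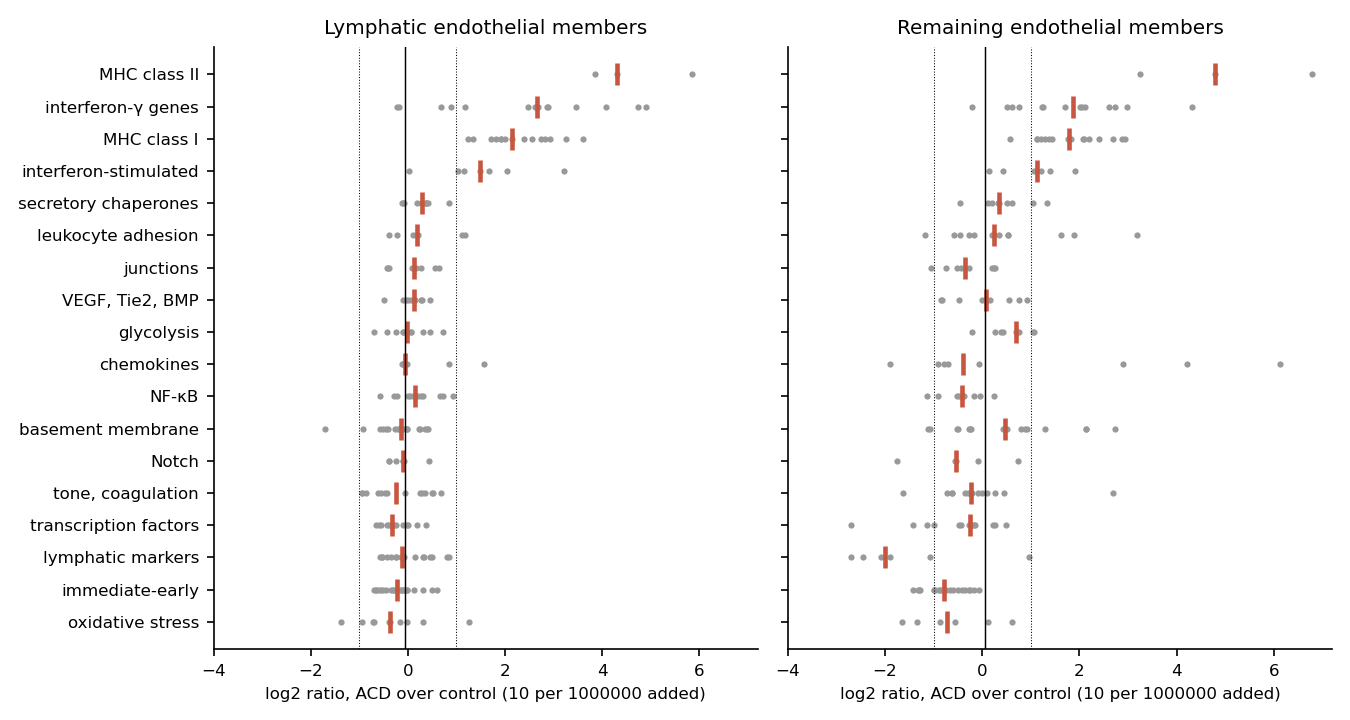
Log2 ratio of ACD over control (x axis, 10 UMIs per 1000000 added) for the genes of 18 lists with at least 50 UMIs, in lymphatic and remaining members. Each grey point is a gene and each red bar a list's median; the solid line is the median of all genes and dotted lines mark 2-fold. The class II, interferon-γ and class I lists stand to the right, with medians of 4.31, 2.67 and 2.15 in lymphatic members, and most other medians lie near the solid line.

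The remaining members differed in makeup between the libraries, with 19 of 37 in control and 32 of 40 in ACD holding few lymphatic UMIs. Prox1 had 439 UMIs per 1000000 in control and 59.4 in ACD. Values of the 19 and 32 cells are therefore given beside the main ones. Of 2189 genes with at least 50 UMIs, 164 were higher (7.49%) and 119 lower (5.44%) in ACD, around a median of 0.06. With at most 2 lymphatic UMIs, 123 of 1669 genes were higher (7.37%) and 69 lower (4.13%), and over all endothelial members 138 of 5247 were higher (2.63%) and 51 lower (0.972%). The control values rest on 198174 UMIs and the ACD values on 521823. The 15 highest were Cd74, Cxcl9, H2-Aa, Gbp2, Cxcl5, Ubd, Hist1h2ap, Ccl3, H2-Ab1, Ctla2a, Vcam1, Serpina3g, Gbp5, Psmb8 and Cxcl10.

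Antigen presentation was higher in remaining members as well. Of 16 class I genes 15 were higher, and with at most 2 lymphatic UMIs 14 of 16, next to 7.49% and 7.37% of all genes. The medians were 1.80 and 1.51, and 1.45 without a minimum over all remaining members. B2m had 868 UMIs per 1000000 in control and 3768 in ACD, a log2 ratio of 2.12 (1.89 to 2.35), or 1.85 with few lymphatic UMIs. H2-K1 had 621 and 2633 (2.08, 1.82 to 2.36) and Psmb8 80.7 and 686 (3.09, 2.37 to 3.91), or 1.64 and 2.47 with few lymphatic UMIs. The control level was above that of lymphatic members for each of these, and the ACD levels were close to theirs. Per cell the class I sum had medians of 53.3 and 169 UMIs per 10000, and 17 of 40 ACD cells lay above the highest control cell at 188. For B2m 8 of 40 did, and for the Gbp and Irg sum 3 of 40, with the highest control cell at 67.3 per 10000.

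Cd74 had no UMI in any of the 37 remaining cells of control and 574 in ACD, a level of 1100 per 1000000, at least 72.7-fold higher against the floor of 3 control UMIs, or at least 42.8-fold in the cells with few lymphatic UMIs. Thinned, it was found in 0 of 36 control cells, which allows a share of up to 8.33% (3 of 36), and in 17 of 40 ACD cells (42.5%). Unthinned, the ACD share was 57.5%. H2-Aa likewise had none in control and 139 in ACD, at least 17.6-fold higher, or 10.5-fold with few lymphatic UMIs. Csf1r, C1qb, C1qc and Adgre1 had no UMI in remaining members of either library, while Lyz2, Cd68 and C1qa had none in control and some in ACD. The myeloid list summed to 95.9 and 138 per 1000000, and 1 of 37 control and 8 of 40 ACD cells held at least 3 of its UMIs. The part of myeloid RNA in the class II values was not tested. Cd274 had 0 and 43 UMIs, at least 5.44-fold higher, or 3.07-fold. Of the 14 interferon-γ genes 10 were higher, and 7 of 12 at few lymphatic UMIs, next to 7.49% and 7.37% of all genes. The medians were 1.86 and 1.56, and 1.29 without a minimum. Gbp2 had 20.2 and 594 (4.88, 3.51 to 6.76), Gbp4 106 and 701 (2.73, 2.09 to 3.44) and Igtp 20.2 and 192 (3.25, 1.85 to 5.15). With few lymphatic UMIs these log2 ratios were 4.10 (2.72 to 5.98), 2.17 (1.49 to 2.94) and 2.48 (1.08 to 4.39).

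The remaining members carried RNA of the T cell chemokines. Cxcl9, a CXCR3 ligand that interferon-γ induces, had no UMI in control and 358 in ACD, a level of 686 per 1000000 over 15 of 40 cells, at least 45.3-fold higher, or 27.5-fold with few lymphatic UMIs. In ACD 1 cell held 35.2% of these UMIs. With 10 UMIs per 1000000 added, the log2 ratio was 6.12 with that cell and 5.55 without it. Cxcl10, a ligand of the same receptor, had 65.6 and 554 (3.08, 2.28 to 4.0; 2.36 with few lymphatic UMIs), but 1 control cell held all of the control UMIs, while 18 ACD cells had it. Thinned, each was found in 10 of 40 ACD cells (25%, 12.7 to 41.2). Cxcl9 was found in 0 of 36 control cells. So was Cxcl10, but the 1 control cell that held it was under 2000 UMIs and left out, and thinned to 1000 UMIs the share was 2.70% (1 of 37). In chondrocyte-gated cells of ACD skin the thinned shares were 0.659% for Cxcl9 and 2.26% for Cxcl10. In lymphatic members the same genes had levels of 0 and 12.1 and of 1.37 and 39.3. Cxcl5, a neutrophil attractant, and Ccl3 were also among the 15 highest, but 1 ACD cell held 100% and 92.6% of their UMIs.

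Of 14 adhesion genes in remaining members, 3 were higher and 1 was lower, next to 7.49% and 5.44% of all genes, and with few lymphatic UMIs 2 were higher and 1 lower (median -0.03). Vcam1, which binds the integrin α4β1 of lymphocytes, had 2 UMIs in control and 90 in ACD, levels of 10.1 and 172 and a log2 ratio of 4.10 (2.2 to 7.16), in 2 of 37 and 16 of 40 cells (4.37 with few lymphatic UMIs). Thinned it was found in 0 of 36 and 8 of 40 cells (20%), with 3.67% and 3.01% of chondrocyte-gated cells. Cd34 and Plvap were the others above 2-fold. Selp, the P-selectin that starts rolling, was lower, with 1171 and 516 (-1.18, or -1.90 with few lymphatic UMIs), though only 5 of 37 control cells held a UMI of it, against 18 of 40 in ACD. Sele had 454 and 376 (-0.27), or -1.0 with few lymphatic UMIs, and Icam1 656 and 435 (-0.59). The control selectin levels thus came from few cells with high values, and the ACD levels from more cells with lower ones.

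Ubd, which encodes the ubiquitin-like FAT10, had no UMI in control and 84 in 12 ACD cells, at least 10.6-fold higher, or 6.45-fold with few lymphatic UMIs. It had 0 UMIs in lymphatic members of both libraries. Serpina3g, a serine protease inhibitor, had 1 and 62 UMIs (4.56, 2.03 to 9.88). Hist1h2ap, a replication-dependent histone, was found in 6 ACD cells, 1 of which held 50.7% of its UMIs.

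Ctla2a, which encodes a cysteine protease inhibitor, was among the most abundant of the genes that differed. It had 217 UMIs per 1000000 in control and 2133 in ACD remaining members, a log2 ratio of 3.30 (2.86 to 3.77), and 290 and 2470 (3.09, 2.57 to 3.67) in those with few lymphatic UMIs. It was found in 14 of 37 and 29 of 40 cells, and 14 of 40 ACD cells lay above the highest control cell. In lymphatic members it had 492 and 469, with no difference beyond counting error. Leukocyte-gated cells, in which the gene is well known, had 877 and 998. Ctla2a has a near-identical neighbour, Ctla2b, so its reads may be shared.

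Plvap had 606 and 2265 UMIs per 1000000 in remaining members (1.90, 1.63 to 2.19) and 1121 and 2629 (1.23, 0.95 to 1.52) in those with few lymphatic UMIs. Its median per cell was 0 in control and 15.1 UMIs per 10000 in ACD, and 10 of 40 ACD cells exceeded the highest control cell at 35.1. In chondrocyte-gated cells, thinned shares were 4.32% and 6.59%, against 33.3% and 60% in remaining members. Csf2rb, the shared β chain of the GM-CSF and interleukin-3 receptors, had 60.6 and 251 (2.05, 1.20 to 3.04), or 1.33 with few lymphatic UMIs.

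Of 16 matrix genes in the remaining members 4 were higher and 2 lower (median 0.47), next to 7.49% and 5.44% of all genes. With few lymphatic UMIs 3 and 2 of 15 were (median -0.03), next to 7.37% and 4.13% of all genes. Col4a1 and Col4a2, the paired chains of type IV collagen, had levels of 197 and 496 and of 65.6 and 324, log2 ratios of 1.33 (0.84 to 1.86) and 2.30 (1.49 to 3.24). Col18a1, the precursor of endostatin, had 70.6 and 347 (2.30, 1.51 to 3.20), and Col15a1 had 2 and 64 UMIs (3.6, 1.69 to 6.68). With few lymphatic UMIs the log2 ratios were 0.78 for Col4a1, 1.93 for Col4a2, 1.62 for Col18a1 and 3.88 for Col15a1. In lymphatic members Col4a1 and Col18a1 were lower by less than 2-fold, at -0.54 (-0.84 to -0.24) and -0.60 (-0.86 to -0.34). Thbs1, the matrix protein thrombospondin, had 20.2 and 186 in remaining members (3.20, 1.80 to 5.11), and with few lymphatic UMIs 0 UMIs in control, at least 7.45-fold higher in ACD. The fibroblast list summed to 1847 and 905 in remaining members, and its part in these values was not tested.

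The genes lower in remaining members were a mixed group. Of the 15 lowest, Prox1, Pard6g and Fgl2 are on the lymphatic list and Comp and Dcn on the chondrocyte and fibroblast lists. Trf, transferrin, had 96.7% of its control UMIs in 1 cell. The lymphatic list had a median of -2.0 over 6 genes. The immediate-early genes had a median of -0.79, and 4 of 20 were lower, next to 5.44% of all genes. Among them were Fos with 4859 and 1943 (-1.32, or -0.98 with few lymphatic UMIs) and Klf4, a flow-responsive factor, with 2432 and 895 (-1.44, -1.63 to -1.26). With few lymphatic UMIs 3 of 20 were lower, next to 4.13% of all genes, and Klf4 had 1846 and 688 (-1.42). Klf2, another flow-responsive factor, had -0.99, and -0.31 with few lymphatic UMIs. Cldn5 had 1186 and 565 (-1.07, -1.32 to -0.82), or -0.96.

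The remaining members were also split by vessel segment. After thinning to 2000 UMIs, a cell was gated to artery, capillary or venule if it had at least 2 UMIs over that segment's 7 markers and more than over the other segments together. The venule markers were Ackr1, Vwf, Nr2f2, Ephb4, Aplnr, Tmem252 and Cysltr1. In control 9 of 36 cells were venule-gated (25%, 12.1 to 42.2) and in ACD 20 of 40 (50%, 33.8 to 66.2), and these intervals overlap. Artery-gated cells numbered 10 and 9, capillary-gated 4 and 3, and 13 and 8 had no segment. Among cells with at most 2 lymphatic UMIs, 5 of 18 and 19 of 32 were venule-gated and 8 and 8 artery-gated. The median depth of venule-gated cells was 8430 UMIs in control and 14953 in ACD.

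In the 5 control and 19 ACD venule-gated cells with few lymphatic UMIs, summed levels of interferon genes were higher and those of selectins lower in ACD. Cd74 had 0 and 1271 UMIs per 1000000, at least 14.9-fold higher, and Cxcl10 0 and 586, at least 6.88-fold. B2m had 1391 and 4404 (1.66, 1.25 to 2.10), and Ctla2a 823 and 3125 (1.92, 1.39 to 2.51). Selp had 6588 and 906 (-2.86, -3.13 to -2.60) and Sele 2556 and 696 (-1.88, -2.24 to -1.5), and each was found in all 5 control cells and in 16 and 14 of 19 ACD cells. Icam1 was lower too (-1.39), and so was Csf3, the granulocyte growth factor, with 54.7% of its control UMIs in 1 cell. Ackr1 and Vwf were lower as well, by log2 ratios of -2.36 and -2.37, but they belong to the gate. Plvap had 2982 and 3449 in these cells, a log2 ratio of 0.21 (-0.08 to 0.51), which is within counting error. With all 9 and 20 venule-gated cells, Selp had -2.01 and Plvap 1.05. There, 1 control cell held 34.1% of the control UMIs of Selp. The median Selp per cell was 5.36 UMIs per 10000 in control and 6.25 in ACD, and that of Sele was 6.70 and 2.01. However, 4 of these 9 control cells held over 2 lymphatic UMIs, and only 5 of the 9 held Selp. The control median of Selp was thus the lowest value among the cells that held it. It does not show whether Selp was lower per cell.

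In the 8 and 8 artery-gated cells with few lymphatic UMIs, Selp, Sele and Ackr1 had no UMI in either library. Psmb8 had a log2 ratio of 3.16, H2-K1 of 1.25 and B2m of 0.87. Cd74 had 0 and 55.2 UMIs per 1000000 there, against 0 and 1271 in the venule gate. Ctla2a had 0 and 1903, but 82.6% of the ACD UMIs were in 1 cell, as were 77.5% of those of Plvap (220 and 938).

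**Figure D4:**
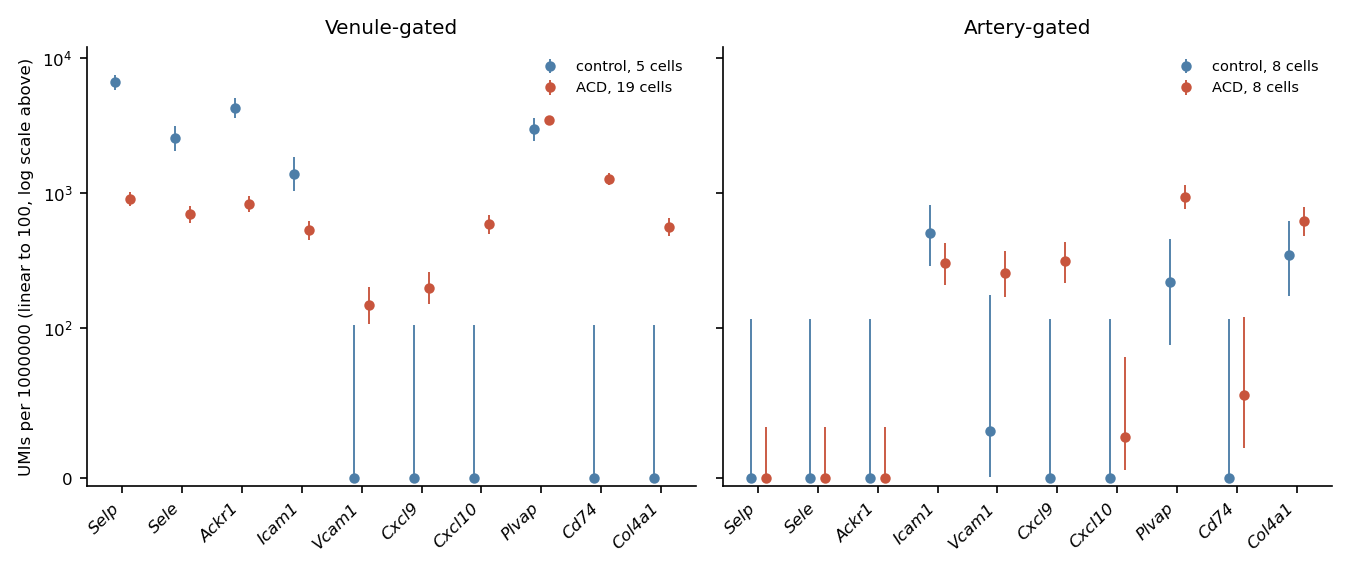
Levels in UMIs per 1000000 (symmetric log axis) of 10 genes in control and ACD cells gated as venule (5 and 19 cells) and artery (8 and 8 cells), with at most 2 lymphatic UMIs. Each point is the UMI sum of the gated cells of 1 library over their total, and bars are 95% counting intervals. In the venule gate Selp goes from 6588 to 906 and Cd74 from 0 to 1271.

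To see where endothelial values stood apart, the same levels were taken in cells gated on pericyte (507 control and 256 ACD cells), fibroblast (3589 and 1749) and chondrocyte markers (3219 and 2127). B2m had log2 ratios of 2.84 in pericyte-, 2.70 in fibroblast- and 2.23 in chondrocyte-gated cells, next to 2.77 in lymphatic and 2.12 in remaining members. Gbp4 had 6.74, 7.37 and 4.58 there, next to 5.80 and 2.73. Of the class I genes, 13 of 17 were higher in pericyte-gated, 15 of 19 in fibroblast-gated and 10 of 18 in chondrocyte-gated cells, where 1.03%, 0.813% and 0.329% of all genes were. No class I gene was lower there, next to 0.954%, 0.137% and 0.0882% of all genes. Interferon-γ genes had medians of 1.51, 1.33 and 0.56 there, next to 2.67 in lymphatic and 1.86 in the remaining members (1.56 with few lymphatic UMIs, and 0.86 with none). Each median covers only the list genes with at least 50 UMIs in that class, so the gene sets differ between classes. Without a minimum both endothelial medians were lower, as given above, so these medians do not rank the classes.

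The comparisons of lymphatic and remaining members share their libraries with these, and values are set side by side. For some genes the ACD level differed widely between classes. Cd74 reached 140 UMIs per 1000000 in pericyte-, 174 in fibroblast- and 248 in chondrocyte-gated cells, next to 799 in lymphatic and 1100 in remaining members and 1793 in leukocyte-gated cells, which had 2759 in control. Vcam1 had 10.4 and 9.04 in pericyte- and 163 and 195 in fibroblast-gated cells, while remaining members went from 10.1 to 172. Cxcl9 had 467 in pericyte- and 422 in fibroblast-gated cells of ACD skin, next to 686 in remaining members and 12.1 in lymphatic members. The cell with the most Cxcl9 UMIs held 35.2% of those of remaining members in ACD. The Cxcl9 levels therefore do not rank remaining members against pericyte- or fibroblast-gated cells. Plvap had 88.5 and 69.1 in pericyte- and 60.5 and 75.8 in fibroblast-gated cells, and Ctla2a did not exceed 12 in any of these stromal gates. Differences between classes of the same library were not tested.

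**Figure D5:**
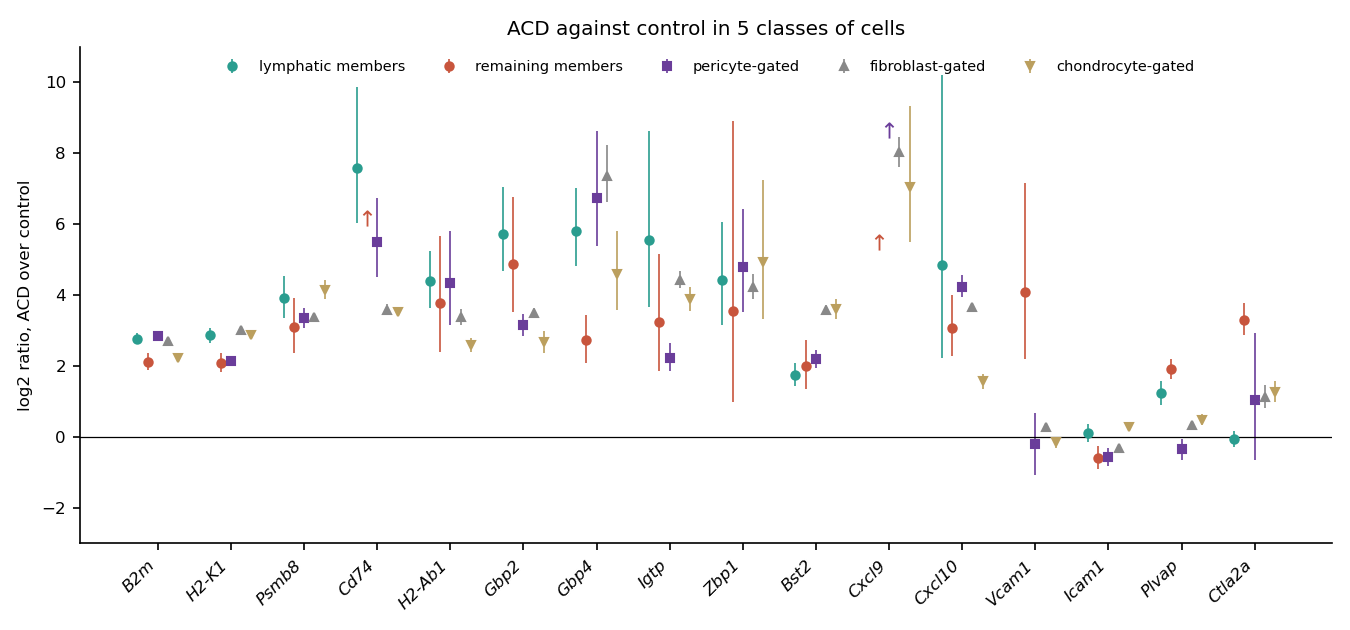
Log2 ratio of ACD over control for 16 genes in lymphatic and remaining members and in pericyte-, fibroblast- and chondrocyte-gated cells. Points are ratios of levels with 95% counting intervals; arrows are lower bounds where control had no UMI, and pairs under 10 UMIs are not drawn. B2m lies between 2.12 and 2.84 in all 5 classes, while Vcam1 and Ctla2a have their highest ratios, 4.10 and 3.30, in remaining members.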

How the data were processed

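Single-cell RNA sequencing was done on 1 control and 1 ACD library. The authors aligned reads and counted UMIs with Cell Ranger (3.1.0 in the submitters' processing notes) against mm10, and deposited raw UMI counts for 27998 genes per barcode, with no cell annotation. A barcode was kept if it held over 200 genes but under 5000, no more than 25000 UMIs, and mitochondrial UMIs below 8%, after the study's filters, whose UMI limit was read as an upper one. UMI counts were summed over the members of each class and divided by the class total. Ratios of levels have exact conditional binomial 95% intervals, single levels exact Poisson intervals and shares exact Clopper-Pearson intervals, while a share of 0 has the limit that 3 cells would give. Nothing was imputed and no normalisation between libraries beyond the totals was applied. With 1 library per group, no test was made.

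The members, the 35 gene lists and the gates were chosen with earlier results of these data known. Genes named were list genes past 2-fold or defining their list, the 15 highest and 15 lowest in the remaining members, and the 10 highest and 10 lowest in lymphatic members. A few others (Fmo2 and Gstm1 spread over cells, Cd274, Irf7) were singled out after their values were seen. Cells were thinned to 2000 UMIs with a fixed seed for shares. Alternatives covered cell filters, the marker gate, mixed cells, scaling, thinning, weighting, the added constant and the UMI minimum. Strand and handling of near-identical genes followed Cell Ranger, so reads of such genes may be lost or shared. Positions are from GENCODE on GRCm38, and 27645 of 27998 gene identifiers were found there. Some items are not reported here. The steps were tested on simulated data. Analyses used Python 3.11.15, numpy 2.4.6, scipy 1.17.1, pandas 2.3.3 and matplotlib 3.10.9.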

Additional observations from a re-analysis of the deposited data

Results flagged for a closer look

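In 4 genes, lymphatic and remaining members differed between control and ACD in opposite directions, each past 2-fold with 10 UMIs per 1000000 added, and in none of them was the difference between the classes tested. Igfbp7, which encodes an insulin-like growth factor binding protein of vessels, had log2 ratios of -1.68 in lymphatic and 1.66 in remaining members. Its levels were 381 and 112 UMIs per 1000000 in lymphatic and 1080 and 3434 in remaining members, in 46 of 84 and 34 of 62 lymphatic cells and in 18 of 37 and 37 of 40 remaining cells. In control, 1 lymphatic cell held 26.0% of the Igfbp7 UMIs of its class. Values here are over all remaining members, which held more lymphatic cells in control, and the part of that makeup was not tested. Clec2d, a lectin that binds an inhibitory receptor of natural killer cells, had 1.28 and -1.01, on 26 and 67 UMIs in lymphatic and 25 and 30 in remaining members. Trf, transferrin, had 2.67 and -3.05, with 93.0% of the ACD lymphatic UMIs and 96.7% of the control UMIs of remaining members in 1 cell each. Igfbp6, a relative of Igfbp7, had -1.16 and 1.45, with 53.8% of the ACD lymphatic and 82.4% of the ACD UMIs of remaining members in 1 cell each.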

How the results depend on the processing

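No paired analysis was possible because each group is 1 library and no test was made. Of 168 values that answer a comparison under another setting, 129 stayed within the counting interval of the reported value (for counts of genes, within 1.5 times it) and 39 did not. A change of sign was looked for only in list medians past 2-fold, and none of these changed sign. The share of members, lower in ACD in the main setting, was not lower with all deposited barcodes. It was then 139 of 13163 in ACD and 132 of 12895 in control. The counts past 2-fold depended most on settings. In lymphatic members 68 genes were higher, and 146 with all deposited barcodes, 45 without members holding over 2 UMIs of other cell types, 22 with cells thinned to 2000 UMIs, 117 at a minimum of 20 UMIs and 157 with no minimum. The 54 lower became 32 without mixed members, 24 thinned, 93 with 1 UMI per 1000000 added, 107 at a minimum of 20 and 148 with none. In the remaining members the 164 higher became 249 with all barcodes, 71 without mixed members, 20 thinned, 337 at a minimum of 20 and 784 with none. The 119 lower became 67, 40, 269 and 750 without mixed members, thinned, at 20 and with no minimum, 51 over all endothelial members, 69 with at most 2 lymphatic UMIs and 55 with no lymphatic UMI. Thinning and the minimum change how many genes are tested.

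The interferon-γ median (2.67 lymphatic, 1.86 in the remaining members) was 4.12 thinned and 1.85 with no minimum in lymphatic, and 0.86 in the remaining members with no lymphatic UMI. The class II median in lymphatic members (4.31) was 2.95 with all barcodes, 3.64 as a mean over cells, 5.37 with 1 UMI added, 3.03 at a minimum of 20 and 2.12 with none. In the remaining members (4.79) it was 4.90 with at least 500 genes and under 5% mitochondrial UMIs, 4.96 at a gate of 8 UMIs, 5.46 without mixed members, 6.62 thinned, 8.06 with 1 UMI added, 3.04 at a minimum of 20, 2.83 with none, 2.95 over all members and 4.98 with at most 2 lymphatic UMIs.

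Directions also changed for some single genes and for the lymphatic list, and for the single genes the cause was not tested. In lymphatic members, Fabp4 was 1.20 with all barcodes, and without mixed members Sparc was 0.10, Trf -0.51 and Igfbp6 0.26. Trf was also -0.53 without the cell richest in fibroblast UMIs and -0.51 without its top ACD cell. In the remaining members the lymphatic list had 0.25 with at most 2 lymphatic UMIs and 0.78 with none, on only 2 genes in the former and with the list's own genes in that gate, so this follows from the gate. At a gate of 8 UMIs, Ccl21a was 1.07, Dcn 0.81 and Trf 1.23. Over all members, Col18a1 was -0.22, Ccl21a 0.33, Clec2d 0.50, Trf 0.069 and Igfbp6 -0.061. Ccl21a was 0.10 with at most 2 lymphatic UMIs, Trf 1.23 without its top control cell and Igfbp6 -1.35 without mixed members. Settings that left out a top cell or cells with lymphatic or fibroblast UMIs were chosen after seeing the data. Depth limits genes with few control UMIs, most of all in the remaining members.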
